A study of Mus musculus with 3 samples.

Results

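Messenger RNA of 39 mouse genes that make or recycle nucleotides, carry folate-bound carbon units or make serine was examined in T helper 1 (Th1) cells. The genes were chosen by a fixed list of symbols and not by their measured values, though earlier results of these data were known. All 39 were found among the 50600 genes of the tables. They fall into 7 classes by role. De novo purine synthesis has 11 genes, pyrimidine synthesis 7, folate one-carbon metabolism 6, salvage 5, serine synthesis 3 and ribonucleotide reductase 3, and 4 genes serve purine and pyrimidine nucleotides alike.

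The study measured RNA by sequencing in Th1 primary cells of the mouse strain C57BL/6NJ. It has 1 group of 3 libraries, replicates 1, 2 and 3, and the file headers give 48 h for each, in an RNA-seq time course of Th1 and Th2 cells. No genotype change or treatment other than the differentiation is named, age is given as unknown and sex as not collected. The 3 biosamples carry 1 donor identifier, and the labels do not say whether cells came from separate animals or cultures, so the spread given here is that between these libraries and may be technical. With 1 group no test between conditions was possible, and the comparisons are between genes within a library and between libraries.

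Th1 cells are CD4 T cells that secrete interferon gamma. When a naive T cell is activated it grows and divides rapidly, and it must copy its genome and make large amounts of RNA. Purine rings are built stepwise on phosphoribosyl pyrophosphate and use formyl groups carried by folate, pyrimidine rings are built first and then joined to the same sugar, and thymidylate needs a methylene group from folate. Serine is the main donor of these carbon units, ribonucleotide reductase turns ribonucleotides into the deoxyribonucleotides of DNA, and salvage enzymes recycle free bases and nucleosides.

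The upstream sequences below are shown for Ppat, Paics and Psph because they lie where exons of opposite strands overlap, which later comparisons return to, and for Impdh2 and Atic as further purine genes with an E-box. Each is the 250 bases before the RefSeq transcription start on assembly GRCm38.p6, written from 5′ to 3′ on the gene's own strand. RefSeq windows matched 36 of the 39 genes, with none for Pfas, Rrm2b and Dhodh. Ppat (chr5:76951579-76951828, minus strand) and Paics (chr5:76951052-76951301, plus strand) are neighbours transcribed in opposite directions from starts at 76951578 and 76951302, so that each window lies wholly under exons of the other gene. The Psph window (chr5:129787254-129787503, minus strand) also lies wholly under exons of a plus-strand gene, Cct6a, which encodes a chaperonin subunit. Impdh2 (chr9:108560186-108560435, plus strand) and Atic (chr1:71556906-71557155, plus strand) have no opposite-strand exon in their windows. Capitals mark the E-box CACGTG in Paics, Impdh2 and Atic, an E2F-type word in Ppat and CCAAT, read on the other strand, in Psph.
Paics: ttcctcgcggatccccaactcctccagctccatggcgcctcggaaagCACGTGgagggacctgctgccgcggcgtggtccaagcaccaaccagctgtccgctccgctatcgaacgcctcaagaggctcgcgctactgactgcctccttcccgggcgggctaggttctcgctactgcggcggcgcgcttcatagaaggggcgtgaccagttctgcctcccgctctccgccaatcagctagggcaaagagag
Ppat: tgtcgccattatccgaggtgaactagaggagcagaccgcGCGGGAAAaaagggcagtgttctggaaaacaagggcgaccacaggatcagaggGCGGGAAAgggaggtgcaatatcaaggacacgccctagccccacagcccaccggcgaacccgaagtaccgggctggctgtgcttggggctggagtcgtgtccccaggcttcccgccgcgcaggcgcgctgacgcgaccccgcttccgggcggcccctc
Impdh2: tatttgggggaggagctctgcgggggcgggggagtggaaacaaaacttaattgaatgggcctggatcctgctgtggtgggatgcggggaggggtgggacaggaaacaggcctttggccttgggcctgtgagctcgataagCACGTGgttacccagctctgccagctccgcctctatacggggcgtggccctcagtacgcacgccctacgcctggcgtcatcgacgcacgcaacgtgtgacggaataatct
Atic: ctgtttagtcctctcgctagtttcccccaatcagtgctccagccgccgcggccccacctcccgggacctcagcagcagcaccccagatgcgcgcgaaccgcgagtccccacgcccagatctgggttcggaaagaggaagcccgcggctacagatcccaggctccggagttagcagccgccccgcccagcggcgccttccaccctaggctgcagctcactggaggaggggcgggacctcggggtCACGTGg
Psph: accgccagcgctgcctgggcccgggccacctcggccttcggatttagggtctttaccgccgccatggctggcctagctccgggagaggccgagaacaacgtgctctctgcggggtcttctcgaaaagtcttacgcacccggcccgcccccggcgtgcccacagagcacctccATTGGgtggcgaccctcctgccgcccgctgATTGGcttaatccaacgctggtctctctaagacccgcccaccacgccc

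The E-box, a word bound by MYC and related factors, began 203 bases before the start of Paics, 110 before that of Impdh2 and 7 before that of Atic. Over the whole windows, 250 bases before the start and 50 after, CACGTG stood in 7 of 43 windows of these genes (16.3%), in Atic, Dtymk, Impdh2, Nme1, Paics and Tyms, and in 7.15% of all 32851 RefSeq windows of that length. E2F-type words (TTTCCCGC, TTTCGCGC, TTTGCCGC or TTTGGCGC on either strand) stood in 2 windows (4.65%), those of Ppat and Prps2, and in 2.26% of all windows. CCAAT stood in 37.2% of the windows of these genes and in 37.4% of all windows. The cyclic AMP response word TGACGTCA was found in the Umps window alone (2.33% against 1.79%), and TGATGNAA, a form of the ATF4 word, in that of Prps1 alone (2.33% against 3.97%). Each word was searched on both strands and counted on its own, whether or not it overlapped another. These are matches of letters and were not tied to binding or to the levels below.

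The libraries differed widely in depth, at 4742025, 50627 and 3543816 counts in replicates 1, 2 and 3. In replicate 2, 1 count was worth 19.8 CPM, that is counts scaled to a common library total, and a count of 0 there allowed up to 59.3 CPM, taking 3 counts as the limit. Levels are given as TPM, counts divided by gene length and scaled to the same sum in every library. Genes that share exonic bases with a gene of the opposite strand took 52.7%, 57.8% and 72.2% of all counts in replicates 1, 2 and 3, so replicate 3 stood apart, and the median protein-coding gene detected throughout was at 4.81, 4.83 and 3.90 on the log2(TPM + 1) scale. All 8 T cell markers, all 4 Th1 markers and all 7 proliferation markers reached 1 TPM in every library. Of 5 B cell markers none did, and 1 of them, Cd79a, did in the deep replicates 1 and 3 (10 and 22 counts). Of 4 CD8 and NK markers only Cd8b1 did (21, 1 and 13 counts, with Cd8a at 0). Of 5 myeloid markers only Csf1r did, at 105, 84.5 and 167 TPM (1096, 10 and 1606 counts), while the other 4 had no count. Csf1r has 17.8% of its exonic length under opposite-strand exons. The T cell marker Cd247 has 56.4% and the Th1 marker Il12rb2 40.0%. In these bulk samples, fewer cells of a type and less RNA per cell cannot be told apart.

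The synthesis genes were expressed at high levels in these cells. Of the 39 genes, 35 reached at least 1 TPM in every library, against 14.8% of all 50600 genes and 29.4% of 21764 protein-coding genes. In replicates 1 and 3, which were deep, 37 did so, against 44.3% of protein-coding genes. Their median position among detected protein-coding genes was the 87.3rd percentile in replicate 1, the 72.0th in replicate 2 and the 82.6th in replicate 3, and 14, 5 and 10 of them stood above the 90th. Their summed share of the counts was 0.545% in replicate 1 (exact Clopper-Pearson 95% limits 0.539 and 0.552), 0.508% in replicate 2 (0.448 and 0.573) and 0.342% in replicate 3 (0.336 and 0.348). These intervals cover counting error only, since reads were counted without molecular identifiers. The share in replicate 3 lay below that of replicates 1 and 2 by more than counting error.

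**Figure D1:**
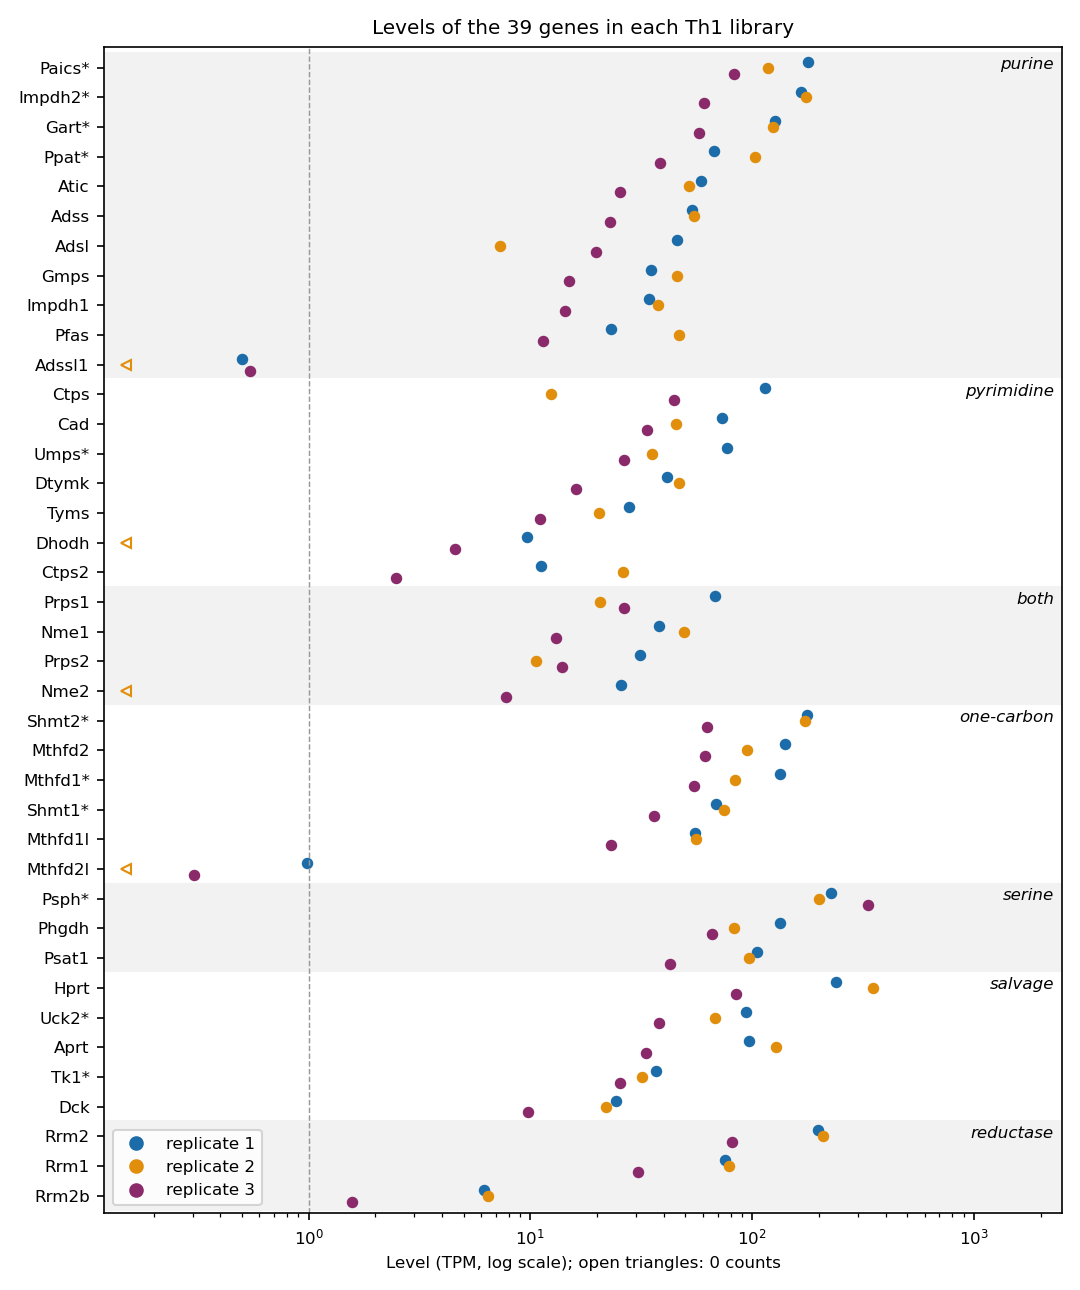
Level of each of the 39 genes in TPM on a log axis, grouped by pathway class, with 1 point per library and an asterisk on the 11 genes that share exonic bases with an opposite-strand gene. The dashed line is 1 TPM and open triangles mark 0 counts, all 4 of them in replicate 2. Replicate 3 (purple) lies to the left of replicate 1 (blue) in nearly every row, and Psph is the clearest exception.

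The 4 genes that missed 1 TPM somewhere were of unlike kinds. Adssl1, the muscle form of adenylosuccinate synthase, had only 2, 0 and 2 counts in replicates 1, 2 and 3. Mthfd2l, a mitochondrial methylenetetrahydrofolate dehydrogenase, had 14, 0 and 4. Dhodh, the mitochondrial dihydroorotate dehydrogenase, and Nme2, a nucleoside diphosphate kinase, missed it only in the shallow replicate 2. Dhodh was at 9.67 and 4.57 TPM in replicates 1 and 3, and Nme2 at 25.5 and 7.80 TPM. Nme2 shares 48.9% of its exonic length with a readthrough gene of the same strand, Gm20390, which had 0 counts in all 3 libraries, and fragments in exons shared by genes of 1 strand are not assigned under the settings in the file headers, so its level and that of Nme1 (12.5% shared) are uncertain.

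By class, serine synthesis genes had the highest median and the genes shared by purine and pyrimidine synthesis the lowest. The serine median was 7.08, 6.62 and 6.06 on the log2(TPM + 1) scale in replicates 1, 2 and 3 (mean 6.59 ± 0.51, SD, n = 3). One-carbon genes followed at 6.14 ± 0.57, salvage at 5.92 ± 0.75, ribonucleotide reductase at 5.85 ± 0.75, purine synthesis at 5.36 ± 0.67, pyrimidine synthesis at 4.76 ± 0.66 and the shared genes at 4.33 ± 0.71 (SD, n = 3 libraries each). The order was the same in replicates 1 and 3, and in replicate 2 salvage and ribonucleotide reductase changed places. No other neighbours changed places. The SD between libraries was larger than the distance between neighbouring means, and every class had its lowest median in replicate 3. Among the genes without opposite-strand exons the one-carbon median was 5.41, between ribonucleotide reductase and purine synthesis, because Shmt1, Shmt2 and Mthfd1 all share such exons. The levels of the 39 genes ranked alike in the deep libraries (Spearman's rho 0.98 across genes between replicates 1 and 3, and 0.847 and 0.848 with replicate 2), a description across genes that share their libraries.

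**Figure D2:**
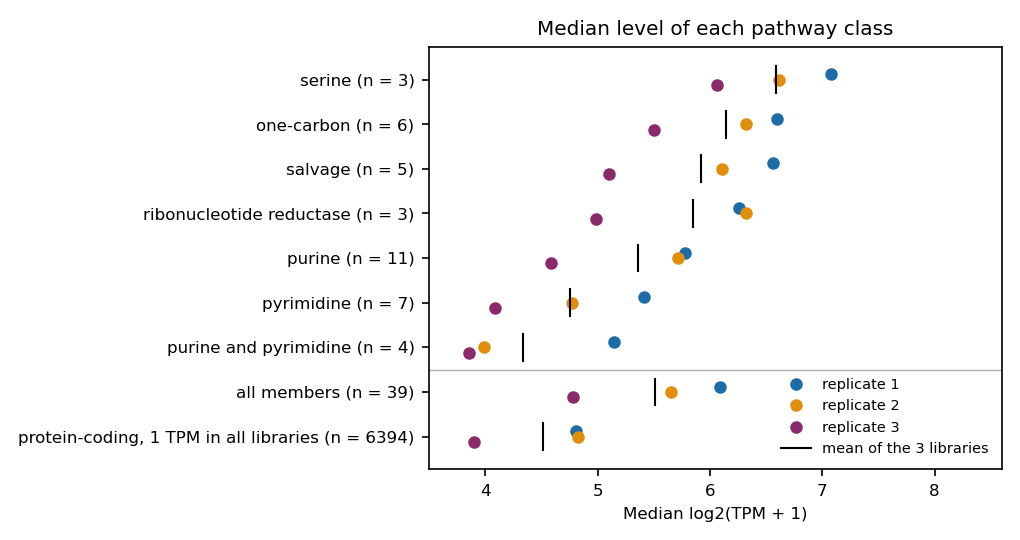
Median level of each class as log2(TPM + 1), 1 point per library and a black bar for the mean of the 3 libraries, with all 39 genes and the protein-coding genes at 1 TPM in every library below the line. Serine synthesis lies furthest right at a mean of 6.59, and all classes, like the 6394 protein-coding genes, are lowest in replicate 3.

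All 10 purine synthesis genes other than Adssl1 were detected in every library. Ppat, the amidophosphoribosyltransferase that commits phosphoribosyl pyrophosphate to purines, had 637, 11 and 335 counts and stood at 67.3, 103 and 38.4 TPM in replicates 1, 2 and 3. Paics, the enzyme encoded next to it, was higher in all 3, at 178, 118 and 82.6 TPM. Gart, which carries out several steps of ring building including a folate-dependent formyl transfer, stood at 127, 124 and 57.6 TPM. Replicate 3 was the lowest library for each of these, and both Paics and Gart were above Ppat in TPM within every library. In replicate 2 Paics and Gart had 9 and 12 counts beside 11 of Ppat. The order of Paics and Ppat there rests on their lengths of 3139 and 4421 bp. Pfas, the formylglycinamidine synthase, was the lowest of the ring-building enzymes in replicates 1 and 3 at 23.0, 46.8 and 11.4 TPM. Adsl, adenylosuccinate lyase, stood at 45.8, 7.33 and 19.8 TPM, the middle value resting on 1 count. Atic, which adds the last formyl group and closes the ring, stood at 59.0, 51.7 and 25.4 TPM.

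Of the enzymes that lead from inosine monophosphate (IMP) to guanine and adenine nucleotides, Impdh2 was the highest. IMP dehydrogenase is the rate-limiting step towards guanine nucleotides and is the target of mycophenolate, which restrains lymphocyte growth. Impdh2 stood at 166, 174 and 60.8 TPM and Impdh1 at 34.5, 37.6 and 14.3 TPM, so the groups of values did not overlap. Impdh2 was 4.82-fold above Impdh1 in replicate 1, 4.64-fold in replicate 2 and 4.25-fold in replicate 3. The mean log2 ratio was 2.19 ± 0.09 (SD, n = 3), and the exact 95% counting interval lay above 0 in all 3 libraries. Impdh2 shares 39.3% of its 50-base words with the pseudogene Impdh2-ps (10, 0 and 3 counts), and reads that map to both are not counted under those settings. Gmps, which makes guanosine monophosphate, stood at 31.9 ± 15.6 TPM, and Adss, which leads to adenine nucleotides, at 43.8 ± 18.1 TPM (SD, n = 3). Adss was 107-fold above Adssl1 in replicate 1 and 42.1-fold in replicate 3, each against 2 counts of Adssl1.

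For 14 such pairs of isozymes, subunits or consecutive enzymes, the log2 TPM ratio was taken within each library. An exact sign-flip permutation test, two-sided, cannot go below p = 0.25 with 3 libraries, or p = 0.50 with 2, so no pair could pass it, and all 9 pairs with 1 sign in 3 libraries had p = 0.25 (adjusted over the pairs, 0.389). The ratios are therefore read against the counting interval of each library and the spread between libraries. The counting intervals treat reads as independent, and the interval of replicate 2 was wide throughout.

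**Figure D3:**
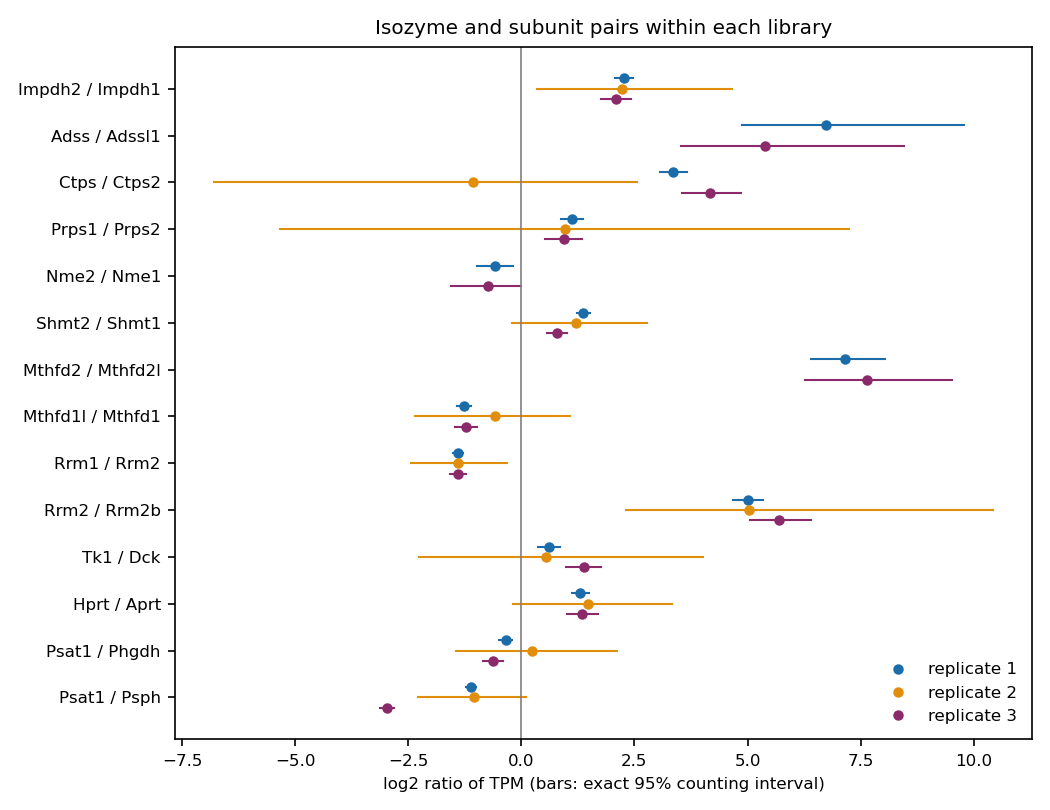
Log2 ratio of TPM for each of the 14 pairs, 1 point per library, with bars for the exact 95% counting interval. No point is drawn where either gene had 0 counts. The points of Rrm1 to Rrm2 are at -1.40, -1.41 and -1.41, with a wide interval in replicate 2 (-2.45 to -0.32). Psat1 to Psph moves from -1.12 in replicate 1 to -2.97 in replicate 3.

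In pyrimidine synthesis, Cad and Umps, the enzymes on either side of the mitochondrial step, were abundant in the deep libraries and the mitochondrial enzyme Dhodh was lower. Cad, the multifunctional protein that starts the pathway, stood at 73.3, 45.4 and 33.7 TPM, and Umps, which finishes uridine monophosphate, at 77.5, 35.6 and 26.5 TPM. Dhodh, which acts between them, was well below both in the deep libraries, at the values given above. Ctps, the cytidine triphosphate synthase known to be needed for lymphocyte proliferation, stood at 114, 12.5 and 44.5 TPM, with only 1 count in replicate 2. It was 10.2-fold above its isozyme Ctps2 in replicate 1 and 18.0-fold in replicate 3. In replicate 2 the log2 ratio was -1.08, on 1 against 3 counts, and its counting interval ran from -6.79 to 2.56.

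Thymidylate enzymes were at moderate levels. Tyms, thymidylate synthase, stood at 27.8, 20.3 and 11.1 TPM, and Dtymk, the kinase that acts next, at 41.5, 47.1 and 16.0 TPM. Tyms was thus below the reductase genes Rrm1 and Rrm2 in every library. Among the genes shared by both kinds of nucleotide, the phosphoribosyl pyrophosphate synthetase Prps1 stood at 67.7, 20.7 and 26.5 TPM and Prps2 at 31.2, 10.7 and 13.9 TPM. The log2 ratio of Prps1 to Prps2 was 1.12, 0.96 and 0.93, with 1 count of each gene in replicate 2 (mean 1.00 ± 0.10, SD, n = 3). In counts the mean log2 ratio was 0.04, on 289, 1 and 104 counts of Prps1 and 259, 1 and 106 of Prps2. The order in TPM therefore rests on scaling by their lengths of 1993 and 3873 bp. Prps1 also shares 9.93% of its sequence words, compared as for Impdh2, with Prps1l3 (178, 0 and 41 counts), which makes its level uncertain. Nme1 stood at 38.0, 49.4 and 13.1 TPM, on 272, 4 and 86 counts beside 64, 0 and 18 of Nme2. No order of Nme1 and Nme2 is read from these levels, since TPM divides by lengths that include the bases shared with Gm20390.

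In folate metabolism the mitochondrial arm was led by Shmt2 and Mthfd2. Shmt2, the mitochondrial serine hydroxymethyltransferase, stood at 177, 173 and 62.5 TPM, and its cytosolic counterpart Shmt1 at 68.6, 74.4 and 36.2 TPM. Shmt2 was 2.58-, 2.32- and 1.73-fold above Shmt1 in replicates 1, 2 and 3, with the counting interval above 0 in the deep libraries. Mthfd2, the mitochondrial dehydrogenase and cyclohydrolase typical of dividing cells, stood at 140, 94.7 and 61.3 TPM. It was 142-fold above Mthfd2l in replicate 1 and 201-fold in replicate 3, on 4 counts of Mthfd2l. In replicate 2, with 8 counts of Mthfd2 and 0 of Mthfd2l, it was at least 5.08-fold above when 3 counts are set as the limit for Mthfd2l and no error is given to Mthfd2, and the exact counting interval of the log2 ratio began at 1.70.

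The cytosolic enzyme Mthfd1, which handles the folate steps that feed purines and thymidylate, stood at 134, 83.7 and 54.5 TPM. Mthfd1l, the mitochondrial enzyme that releases formate, was lower at 55.3, 55.9 and 23.2 TPM. Mthfd1 was 2.42-, 1.50- and 2.35-fold above it, and the counting interval excluded equality in replicates 1 and 3. The 4 highest one-carbon genes, Shmt2, Mthfd2, Mthfd1 and Shmt1, came in this order in all 3 libraries. In replicate 2 the order rests on 13, 8, 9 and 7 counts, and in replicate 3 Shmt2 and Mthfd2 were close, at 62.5 and 61.3 TPM.

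In serine synthesis all 3 enzymes were among the more abundant of the 39 genes. Phgdh, phosphoglycerate dehydrogenase, the entry from glycolysis, stood at 134, 83.0 and 65.9 TPM. Psat1, the aminotransferase, stood at 105, 97.1 and 42.7 TPM, and the log2 ratio of Psat1 to Phgdh was -0.35, 0.23 and -0.63. That order was not the same in all libraries, and 47.8% of the 50-base words of Phgdh occur in other annotated genes, which makes its level uncertain. Psph, the phosphatase that completes serine, had 2113, 21 and 2855 counts and stood at 228, 200.3 and 335 TPM. It was the most abundant of the 39 genes in replicate 3 and ranked below Hprt in replicate 1. Psph was 2.17- and 2.06-fold above Psat1 in replicates 1 and 2 and 7.84-fold in replicate 3, and the intervals of replicates 1 and 3 did not overlap.

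Salvage was led by Hprt, which returns hypoxanthine and guanine to nucleotides, at 238, 352 and 84.6 TPM. Aprt, which does so for adenine, stood at 96.6, 128 and 33.3 TPM. Hprt was 2.47-, 2.76- and 2.54-fold above Aprt, a log2 ratio of 1.37 ± 0.08 (SD, n = 3), with the counting interval above 0 in replicates 1 and 3. In replicate 2, on 11 and 5 counts, the interval ran from -0.18 to 3.34 and included 0. Uck2, a uridine and cytidine kinase, stood at 93.5, 68.0 and 38.2 TPM. Tk1, the thymidine kinase of S phase, stood at 37.0, 31.8 and 25.4 TPM, the narrowest relative range among the salvage genes. Dck, deoxycytidine kinase, was the lowest salvage gene at 24.3, 21.8 and 9.80 TPM. Tk1 was above Dck in all 3 libraries, 1.52-, 1.45- and 2.59-fold, with the counting interval above 0 in replicates 1 and 3. In replicate 2 that order rests on 4 and 2 counts, and the interval included 0.

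Of the ribonucleotide reductase subunits, Rrm1 and Rrm2 had nearly the same estimated ratio in all 3 libraries, and Rrm2b was far lower. Rrm1, the catalytic subunit, stood at 75.4, 78.7 and 30.6 TPM. Rrm2, the small subunit made in S phase, was above it by 2.63-fold in replicate 1, 2.65-fold in replicate 2 and 2.66-fold in replicate 3, with all 3 counting intervals on the same side. Replicate 2 had 21 counts of Rrm1 and 14 of Rrm2. Its interval for the log2 ratio of Rrm1 to Rrm2 ran from -2.45 to -0.32, too wide to show so close a match. The annotated length of Rrm1 is 11012 bp and that of Rrm2 is 2771 bp, and in counts Rrm1 exceeded Rrm2, with a mean log2 count ratio of 0.59, so the order rests on scaling by these lengths. Rrm2b, the alternative small subunit induced on DNA damage, stood at 6.17, 6.41 and 1.58 TPM. Rrm2 was 32.2-, 32.5- and 51.6-fold above Rrm2b, on 85, 1 and 20 counts of the latter.

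Further genes of these pathways were taken from a list of 68, of which 67 were matched. Of those 67 genes, 27 reached 1 TPM in every library and 49 did in replicates 1 and 3. The highest by mean level was Dctpp1, which hydrolyses deoxycytidine triphosphate, at 178, 428 and 69.8 TPM, followed by Gmpr2, guanosine monophosphate reductase, at 179, 268 and 195 TPM. Nt5m, a mitochondrial nucleotidase, stood at 73.1, 147 and 114 TPM, Dut, which keeps uracil out of DNA, at 185, 85.7 and 63.4 TPM, and Mat2a, which makes S-adenosylmethionine, at 105, 101 and 43.9 TPM. Gmpr2 and Nt5m were the ones of these 5 genes that were not lower in replicate 3 than in replicate 1. Cda, Ampd1, Dpyd, Ftcd, Upp1 and Gda had no count in any library, and in the deepest library a count of 0 allows up to 0.633 CPM. Among these are the catabolic enzymes Dpyd, Upp1 and Gda, which act on uracil, uridine and guanine.

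Between the libraries most of the 39 genes varied by more than counting error, as most genes did. A chi-square test on counts scaled by the trimmed mean of M values (TMM), adjusted by the Benjamini-Hochberg method over all genes kept, called 32 of the 35 genes tested, against 63.2% of all 7406 genes. The genes not called were Ppat, Shmt1 and Tk1 (adjusted p 0.416, 0.336 and 0.215). This test compares libraries and not conditions, and the filter kept only genes with counts in all 3 libraries. The count hung on scaling: with TMM factors from genes without opposite-strand exons it was 9 of 35 (Ctps, Ppat, Psph, Impdh2, Shmt2, Tk1, Umps, Hprt and Ctps2), against 2886 of 7406 genes in all. Without replicate 2 it was 19 of 37, against 37.9% of all genes. Without replicate 1 it was 3 of 35, namely Psph, Hprt and Ctps2, against 9.47% of all genes. Without replicate 3 the chi-square test called 0 of 35, against 3.65% of all genes, and 3 had an unadjusted p under 0.05. Leaving out replicate 1 or replicate 3 sets a deep library against replicate 2 alone. There the 39 genes had a median of 6 counts and at most 21, so only large differences could be called. The 0 of 35 therefore does not show that replicates 1 and 2 were alike. The biological coefficient of variation is edgeR's estimate of spread beyond counting. Its median was 0.346 over the 35 genes, beside 0.307 over all 7406 genes kept. Over the 24 genes without opposite-strand exons, scaled on such genes alone, the median was 0.151, beside 0.152 for all 4182 genes of that kind.

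Replicate 3 was then set against replicate 1, the deep libraries, after TMM scaling. The 37 genes tested had a median log2 ratio of -0.30 (quartiles -0.39 and -0.16), and all 11003 genes a median of -0.01 (quartiles -0.27 and 0.80). Beyond counting error, 17 of the 37 were lower in replicate 3, against 10.5% of all genes, and 2 were higher, Psph and Tk1, against 27.3% of all genes. The test calls smaller differences in genes with more counts, and the median gene of the 39 had 570 and 220 counts in these libraries. All genes without opposite-strand exons had a median of -0.14, and genes with them 0.91. The 26 synthesis genes without opposite-strand exons had a median of -0.31. None of them was above 0, beside 2158 of all 6532 such genes. Of the 26, 12 were called lower, beside 918 of the 6532. On plain CPM all genes shifted by -0.68, the median of the 37 was -0.99 and 1 was above 0. Relative to the median of genes without opposite-strand exons their median was -0.16 and 9 were above 0, so the direction of the genes near 0 depends on scaling.

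**Figure D4:**
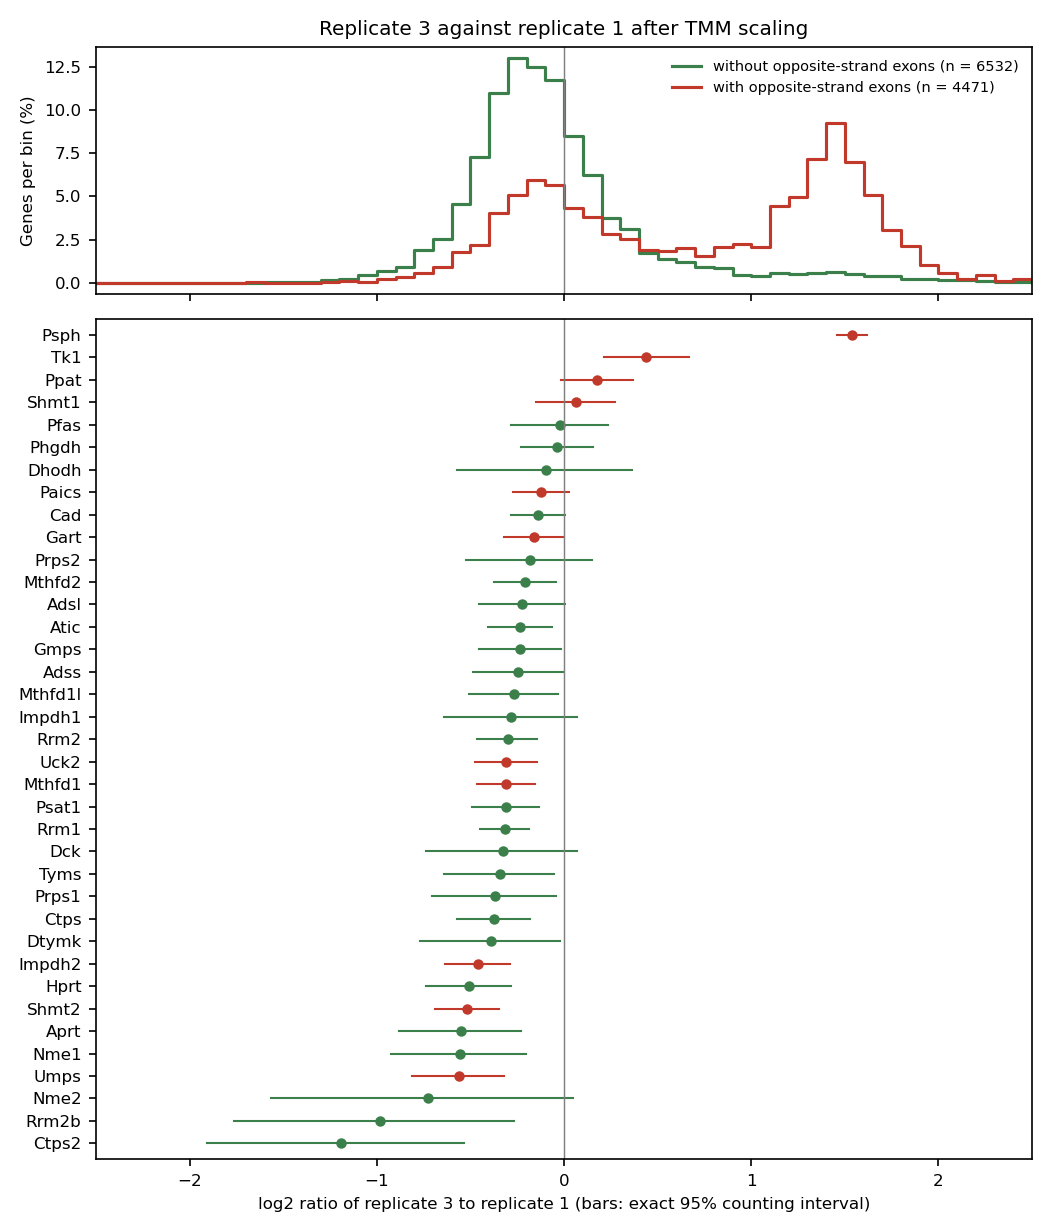
Log2 ratio of replicate 3 to replicate 1 after TMM scaling: above, the distribution over all genes tested, split by whether the gene shares exonic bases with an opposite-strand gene; below, the 37 synthesis genes with exact 95% counting intervals, coloured alike. Genes with such overlap (red) have a large group well above 0, and Psph, at 1.54, is the synthesis gene that lies within it, while most other synthesis genes lie between -0.6 and 0.

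Psph stood out among the 37 genes tested, with a log2 ratio of 1.54 (exact 95% counting interval 1.46 to 1.62). Tk1 followed at 0.44 (0.21 to 0.67), then Ppat at 0.18 and Shmt1 at 0.06, both with intervals that included 0. All 4 of these genes share exonic bases with an opposite-strand gene, as do 7 tested genes that were below 0. None of the 26 tested genes without such bases was above 0 after TMM scaling. Over all genes tested, 3263 of 4471 with such bases and 2158 of 6532 without them were above 0. Relative to the median of genes without opposite-strand exons, some of the 26 were above 0, among them Pfas (0.12) and Phgdh (0.10). Adssl1 and Mthfd2l had too few counts for this test. The lowest ratios were those of Ctps2 at -1.19 (-1.91 to -0.54) and Rrm2b at -0.98 (-1.76 to -0.27), on 23 and 20 counts in replicate 3. Nme2 followed at -0.73 on 18 counts, but its interval included 0 (-1.57 to 0.05) and it was not called. Relative to genes without opposite-strand exons the ratios became 1.68 for Psph, 0.58 for Tk1, -1.05 for Ctps2 and -0.84 for Rrm2b, so the direction of these 4 did not turn. Hprt (-0.51), Shmt2 (-0.52), Umps (-0.56) and Impdh2 (-0.46) were also called lower, and kept their sign on that scale.

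The overlaps with opposite-strand genes were read for all 11 genes that have them. These genes took 43.4%, 43.2% and 53.7% of the counts of the 39 genes in replicates 1, 2 and 3. Psph (chr5:129765558-129787449) shares 452 bp, or 10.4% of its exonic length, with Cct6a, a stretch that covers most of the window printed above. Cct6a had 2563, 44 and 1026 counts, so it fell below Psph only in replicate 3. In CPM, replicate 3 stood at a log2 ratio to replicate 1 of -0.90 for Cct6a and of 0.85 for Psph. The neighbours Ppat (chr5:76913249-76951578) and Paics (chr5:76951307-76967509) share 272 bp at their starts, and their CPM ratios were -0.51 and -0.81.

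Of the partners, 2 are annotated antisense transcripts with more counts than the synthesis gene itself. Gm15964 overlaps Gart (chr16:91621186-91646952) over 676 bp, or 16.9% of Gart, and had 5824, 56 and 7449 counts against 1088, 12 and 453 for Gart. Gm15829 overlaps Umps (chr16:33954782-33967038) over 213 bp and had 1396, 8 and 1722 counts against 578, 3 and 182 for Umps. The log2 CPM ratio of replicate 3 against replicate 1 was 0.78 for Gm15964 and -0.84 for Gart, and 0.72 for Gm15829 and -1.25 for Umps, so partner and gene differed in sign in both pairs on that scale, on which the median of all genes was -0.69. Among the other partners are Smcr8 (with Shmt1), Gm2453 (with Uck2), Afmid (with Tk1), Ndufaf3 (with Impdh2), Gm47525 (with Mthfd1) and Ndufa4l2 (with Shmt2). They share between 32 and 184 bp, and all 6 were higher in CPM in replicate 3, with log2 ratios of 0.36 to 1.30. For Ndufa4l2 this rests on only 4 counts in replicate 1 and 5 in replicate 3. The synthesis gene of each of these pairs was lower in CPM in replicate 3, a scale on which 1 of the 37 genes tested was above 0. After TMM scaling Tk1 (0.44) and Shmt1 (0.06) turned to above 0 and the other 4 did not. On that scale 3263 of all 4471 tested genes with opposite-strand exons were above 0. Whether the strand setting of the counting has a part in these levels was not tested.

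**Figure D5:**
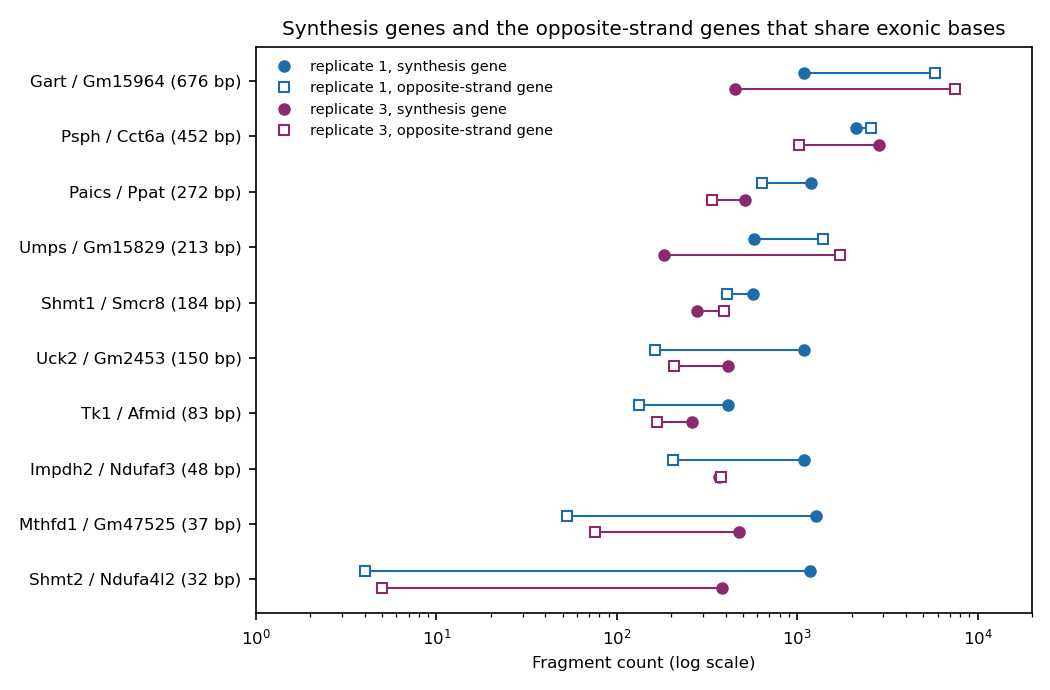
Fragment counts on a log axis in replicates 1 and 3 for the synthesis genes with opposite-strand exons (filled circles) and the overlapping genes (open squares), with the shared exonic bases in brackets and the pair of Ppat and Paics drawn once. From replicate 1 to replicate 3 the antisense partners of Gart and Umps went up to 7449 and 1722 counts while the synthesis genes went down to 453 and 182, and in the Psph pair the order of the genes turned.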

How the data were processed

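RNA of 3 Th1 libraries in 1 group was analysed. The deposited values are raw fragment counts per gene, which the authors made with featureCounts 1.4.6-p4 on GENCODE M13 (mm10), counting pairs with both ends mapped and strand setting 1, per the file headers. Fragments in exons shared by genes of 1 strand and multi-mapped reads were therefore not counted. Not given in the sources used here are the kit, the aligner's version and any trimming. The deposited gene lengths, an other value, gave TPM here. The genes and lists were chosen with earlier results of these data known: all 39 genes are described, the wider list is given by its 6 highest, of which 1 is not reported here, and its uncounted genes, and every gene with opposite-strand overlap is named. Symbols were matched for 50376 of 50600 genes.

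Overlaps were computed with bedtools 2.31.1, and 50-base words were compared with the transcripts of a later GENCODE release. Variation was tested with edgeR 4.0.16 scaling and a chi-square test, which was tested on simulated data, at an adjusted p of 0.05, and DESeq2 1.42.0 gave alternative size factors. Quasi-likelihood tests need a contrast between groups and were not run. A 95% exact binomial interval was used for ratios and shares. Alternatives changed floor, pseudocount, unit, summary, scaling and filter, and left out each replicate. Of these, 2 were chosen after seeing the data.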

Additional observations from a re-analysis of the deposited data

How the results depend on the processing

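Results were recomputed under each alternative. Of the values that answer a comparison, 130 stayed within their limits, 16 moved and 2 turned. With FPKM in place of TPM every class median was lower, at 5.58 for serine, 5.14 for one-carbon, 4.93 for salvage, 4.86 for ribonucleotide reductase, 4.38 for purine, 3.79 for pyrimidine and 3.39 for the shared genes, in the same order. The one-carbon median of 6.14 became 5.28 as a mean over members and 5.41 in members without opposite-strand exons, where 4 of 7 classes kept their rank. As count ratios without length, Rrm1 to Rrm2 turned to 0.59 and Psat1 to Phgdh to 0.52. Leaving out each replicate gave class medians of 6.34 to 6.85 for serine and 3.92 to 4.57 for the shared genes. The members called as varying were 32, then 9 with scaling on genes without opposite-strand exons and 0 to 19 when a replicate was left out, with fewer samples tested. The wider list had 27 to 49 genes at 1 TPM, 49 without replicate 2, where 1 count is worth 19.8 CPM. The median ratio of replicate 3 to replicate 1 was -0.99 on CPM. Among values of single genes, 247 kept their side of the threshold or moved by less than the spread, 109 lost their call and 6 gained one. Beyond that, depth in replicate 2 limits every level there. No paired analysis was possible because there is 1 group.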
